A study of Arabidopsis thaliana with 15 samples.

Results

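The comparison set out here is that of the Arabidopsis thaliana double mutant pp1r3-2 topp4-1 with the single mutant topp4-1, across all genes with enough counts. It rests on 6 of the 15 RNA-seq libraries of the series, 3 of each genotype, chosen by the genotype in the labels. Both groups carry the topp4-1 mutation, so they differ by pp1r3-2. Wild type and the pp1r3-2 single mutant, with 3 libraries each, were read beside them. A line called topp-7m, which the labels give as topp septuple mutants, entered the shared statistical fit and the cell cycle levels only. All plants were of the Columbia accession and untreated. They were kept under long days in a greenhouse, and RNA came from leaves harvested 21 days after germination. The question is how the leaf transcriptome of topp4-1 differs when a second gene, which the series title presents as a phosphatase regulatory subunit, is mutated too. Whether replicates of a genotype were grown as different plants is not given, so each p-value weighs a difference against the library-to-library spread, part of which may be technical.

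Type 1 protein phosphatase removes phosphate groups from serine and threonine residues of other proteins. Its catalytic subunits are encoded in Arabidopsis by the TOPP genes, and regulatory subunits that bind them set where and on which substrates they act. The topp4-1 allele of TOPP4 is known as a dominant-negative allele that gives dwarf plants, and TOPP4 is known to act on DELLA proteins of the gibberellin pathway and on the PIF and phytochrome B light-signalling proteins. The count table holds no gene with the symbol PP1R3, so the transcript of the second mutated gene was not examined by name here.

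Levels are given in CPM, read counts scaled to 1 common library total, with means ± SD over the 3 libraries of a genotype, and changes are log2 fold changes ± SE. Sets of 3 levels are replicates 1, 2 and 3 in that order. A gene is said to have risen or fallen where edgeR's quasi-likelihood test gave a Benjamini-Hochberg adjusted p under 0.05 over all 20037 genes tested. Total counts were 18652357 to 20756997 per library in topp4-1 and 18310335 to 19241457 in the double mutant. The tissue label was checked against marker genes. Summed over 5 mesophyll genes with the symbols LHCB1.1 (carried by both AT1G29920 and AT1G29910), LHCB2.1, RBCS-1A and RCA, which encode light-harvesting proteins, a Rubisco small subunit and Rubisco activase, the level was 12761 to 14710.0 CPM in topp4-1 and 25985 to 31202 CPM in the double mutant. Summed over 6 seed markers it reached 0.0914 CPM in topp4-1 and 0.103 CPM in the double mutant. The root markers PLT1, EXPA7, EXPA18, COBL9 and BHLH83 (known as RHD6) were at 0 in both groups, and the summed root level of 238 to 270.5 CPM in topp4-1 and 73.3 to 226 CPM in the double mutant was mostly BGLU23, known as PYK10, a beta-glucosidase. Of the pairs within the 2 genotypes, double mutant replicates 1 and 3 correlated least (r = 0.9689 on log2 CPM), below the highest correlation of a double mutant library with one of another genotype (r = 0.9876). Replicate 3 of the double mutant stood apart in the cell cycle genes described at the end, and some results that differ without it are named below. Without it, 17 of 357 called genes that were followed one by one lost their call. Not all are named: EXPA9 (adjusted p = 0.114 by edgeR's test) and IAA2 (0.217), for example, stay in the list counts.

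Of the 20037 genes tested, 8676 (43.3%) differed between the double mutant and topp4-1. The double mutant was higher for 4284 (21.4%) and lower for 4392 (21.9%). These shares of all genes are the background for each count of list members that rose or fell below. With a log2 change of at least 1 asked for as well, 1681 (8.39%) were higher and 1148 (5.73%) lower. Without double mutant replicate 3, 9029 genes were called, and without topp4-1 replicate 1, 6961. The 3 libraries of a side did not overlap those of the other for 10909 genes (54.4%), 4983 of them higher (24.9%) and 5926 lower (29.6%). Genes named for the size of their change or of their CPM difference had to show this. For them a lack of overlap describes the choice and is no support. The median log2 change over all genes was -0.02 and the median size of the change 0.36. Against wild type, 10726 genes (53.5%) were called in topp4-1, 27% higher and 26.5% lower. In the double mutant 2631 (13.1%) were called against wild type, 7.66% higher and 5.47% lower, and this count fell to 1342 when only the libraries of the groups compared were fitted, to 1438 without double mutant replicate 3, and to 1596 and 1379 without wild-type replicate 2 and 3. The 2 comparisons had a median size of the change of 0.444 and 0.221. These comparisons share libraries with that of the double mutant and topp4-1, so the values are set side by side and no overlap is read from them.

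**Figure D1:**
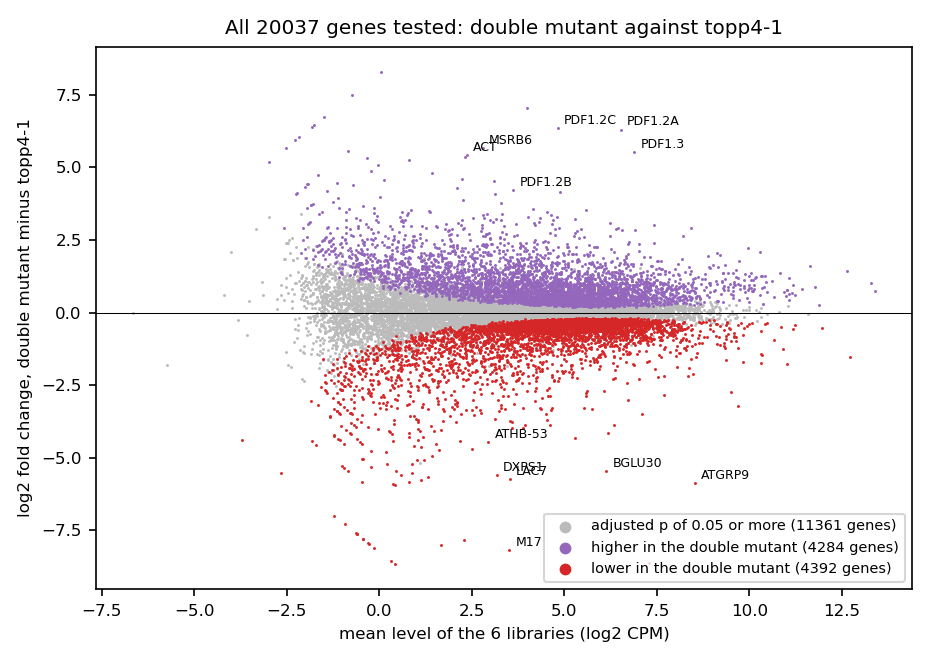
Each point is 1 of the 20037 genes tested, with the mean level of the 6 libraries (log2 CPM) on the horizontal axis and the log2 fold change of the double mutant minus topp4-1 on the vertical axis. The 4284 genes that were higher in the double mutant and the 4392 that were lower lie on both sides of the 0 line at all levels, and the named points are the 6 largest and 6 lowest changes among the genes the naming rule admits.

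Genes of flavonol synthesis were among those that rose most. FLS1 encodes flavonol synthase (AT5G08640, chr5:2803833-2805606, on TAIR10.1 as are all coordinates here). It was at 2.29, 2.63 and 3.20 CPM in the 3 topp4-1 libraries and at 40.3, 25.2 and 32.0 CPM in the 3 double mutant libraries. Every double mutant library lay above every topp4-1 library, near the wild-type mean of 38.3 ± 3.15 CPM, and the change was 3.58 ± 0.21 (adjusted p = 1.97e-08). CHS, chalcone synthase, which opens the pathway, went from 21.6, 20.9 and 18.8 CPM to 205, 111 and 145 CPM (2.91 ± 0.21, adjusted p = 1.26e-07). MYB111, a transcription factor that activates flavonol genes, went from 0.458, 0.206 and 0.549 CPM to 10.8, 5.26 and 8.47 CPM (4.30 ± 0.34, adjusted p = 1.42e-07). In these 2 genes as well the groups did not overlap. CHI3, the table's symbol for the chalcone isomerase-like gene AT5G05270, rose by 3.3 on the log2 scale, the rhamnosyltransferase UGT78D1 by 3.04, chalcone isomerase CHI1 by 1.60 and UGT78D2 by 0.93. 4CL3, a coumarate ligase that feeds the pathway, rose by 3.20. MYB75 and MYB90, which activate anthocyanin synthesis, fell instead, MYB75 from 6.61, 7.38 and 7.22 CPM to 1.14, 0.567 and 0.508 CPM (-3.25 ± 0.43, adjusted p = 2.03e-05) and MYB90 by 1.53, a call that was lost without topp4-1 replicate 1 (adjusted p = 0.0612). Of the 18 tested flavonoid genes, 7 rose and 2 fell, where 21.4% and 21.9% of all genes did, with a median of 0.65. The enzyme F3H is listed at 0 in every library, wild type included, which is not read as absent expression.

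FLS1 is shown here with the 250 bases before the gene start because it was low in topp4-1 and higher in the double mutant, CYP94B3 because it was low in topp4-1 and lower still in the double mutant, and RD29A because it was low in both. The sequences are from RefSeq on TAIR10.1, read 5′ to 3′ along the gene's own strand. Capitals mark matches on either strand to a motif: the W-box core TTGAC, the ABRE core ACGTG, which also lies in the G-box CACGTG, the DRE core CCGAC, the GCC box GCCGCC, the as-1 core TGACG and the evening element AAATATCT.
FLS1, chr5:2803583-2803832, plus strand: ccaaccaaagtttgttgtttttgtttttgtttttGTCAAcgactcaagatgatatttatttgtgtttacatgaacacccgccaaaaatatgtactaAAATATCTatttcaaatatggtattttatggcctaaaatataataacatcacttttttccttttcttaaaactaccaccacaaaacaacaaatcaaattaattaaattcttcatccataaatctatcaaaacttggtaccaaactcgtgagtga
CYP94B3, chr3:17976775-17977024, minus strand: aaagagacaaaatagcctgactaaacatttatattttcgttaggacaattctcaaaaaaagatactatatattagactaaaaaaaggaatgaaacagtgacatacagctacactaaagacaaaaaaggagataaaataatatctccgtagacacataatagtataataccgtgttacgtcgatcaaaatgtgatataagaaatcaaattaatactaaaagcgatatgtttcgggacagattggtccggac
RD29A, chr5:21240467-21240716, plus strand: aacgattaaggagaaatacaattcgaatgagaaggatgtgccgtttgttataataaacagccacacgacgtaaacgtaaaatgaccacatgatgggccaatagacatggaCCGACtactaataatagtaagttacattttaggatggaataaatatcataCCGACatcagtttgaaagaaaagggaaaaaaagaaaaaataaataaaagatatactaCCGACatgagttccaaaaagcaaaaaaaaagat
The FLS1 window held a W-box core and an evening element, the RD29A window the DRE core at 3 places, and the CYP94B3 window none of these letters. Over windows of the same length before 19813 tested genes, the W-box core was present in 45.2%, the ABRE core in 23.4%, the DRE core in 13% and the evening element in 5.01%. Among genes that rose by at least 1 on the log2 scale the W-box core was in 40.4% of 1657 windows, and among those that fell by at least 1 in 53.5% of 1125. For the ABRE core these shares were 23.1% and 32.4% and for the DRE core 11.6% in both. A match is a description of the letters and not evidence that a factor binds there.

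**Figure D2:**
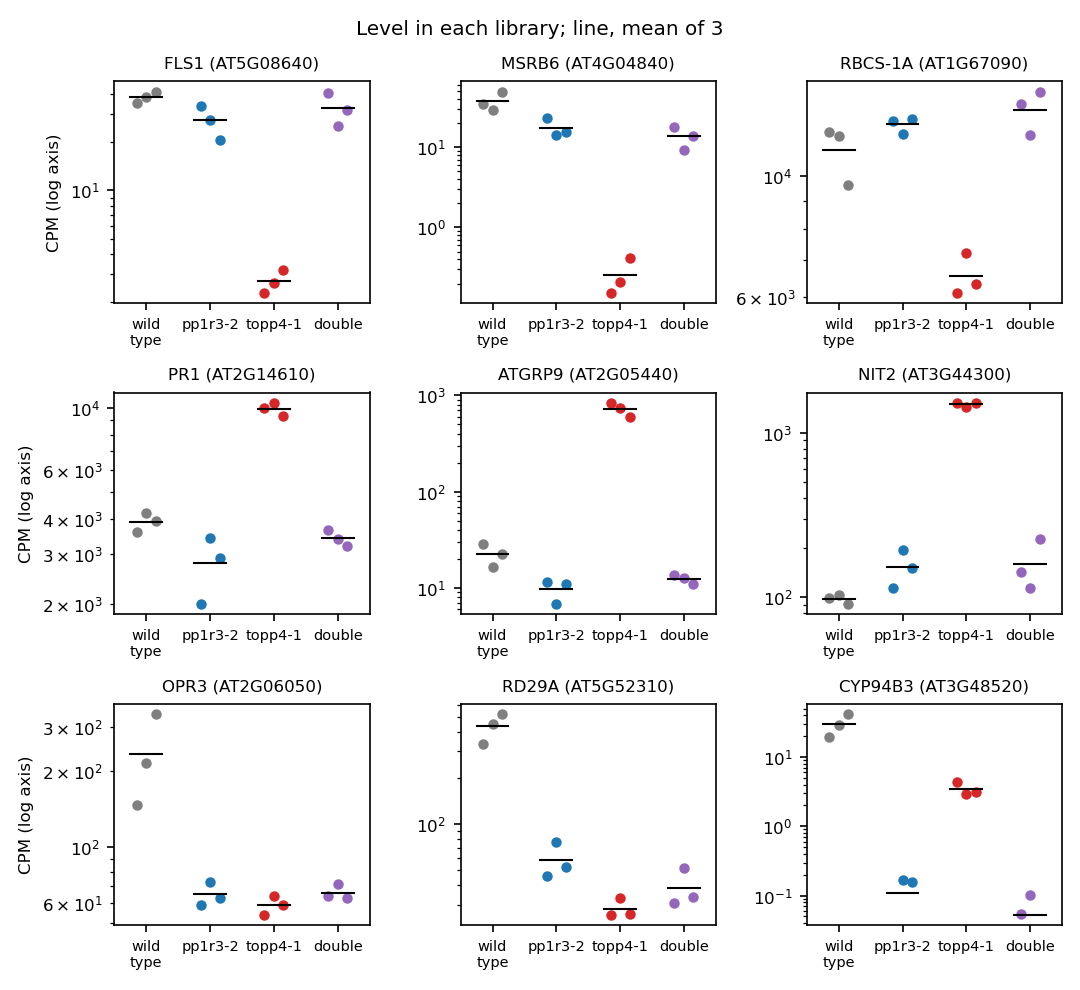
Each point is the level of a gene in 1 library in CPM on a log axis, for wild type, pp1r3-2, topp4-1 and the double mutant, and the line is the mean of 3 libraries. FLS1, MSRB6 and RBCS-1A were low and PR1, ATGRP9 and NIT2 high in topp4-1 and stood nearer the wild-type level in the double mutant, whereas OPR3 and RD29A stayed low and CYP94B3 was lower still, with 1 double mutant and 1 pp1r3-2 library at 0 and not drawn.

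Defence genes that respond to ethylene and jasmonate together included the largest rises among the genes named by rule. The plant defensins PDF1.2A, PDF1.2B, PDF1.2C and PDF1.3 are near-identical copies, so reads may be split between them and their values are uncertain singly. PDF1.2A was at 0.356, 0.619 and 5.72 CPM in topp4-1 and 361, 119 and 66.2 CPM in the double mutant. The groups did not overlap, the double mutant libraries varied several-fold among themselves, and the wild-type mean was 614 ± 254 CPM. The change was 6.30 ± 1.02 (adjusted p = 0.000478). It was 5.33 without double mutant replicate 1 and 8.54 without topp4-1 replicate 3. PDF1.2C, PDF1.3 and PDF1.2B rose by 6.33, 5.53 and 4.21; these were 5.33, 4.95 and 3.39 without double mutant replicate 1 and 7.89, 6.27 and 5.43 without topp4-1 replicate 3. ERF094, the factor ORA59 that switches on PDF1.2, went from 1.83, 2.79 and 3.70 CPM to 21.3, 15.3 and 12.5 CPM, against 21.0 ± 4.79 CPM in wild type (2.55 ± 0.28, adjusted p = 6.15e-06). ERF1B, a related activator, went the other way, from 9.25, 8.98 and 10.4 CPM to 4.53, 3.66 and 3.44 CPM (-1.30 ± 0.20, adjusted p = 7.1e-05), and its wild-type level was 2.87 ± 0.391 CPM. Of the 12 tested genes of this group, 6 rose and 1, ERF1B, fell; 2 fell with only the compared libraries fitted.

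Other genes with large rises belong to different functions. MSRB6, a methionine sulfoxide reductase, was at 0.153, 0.206 and 0.412 CPM in topp4-1 and 17.7, 9.33 and 13.8 CPM in the double mutant. No double mutant library came near the topp4-1 values, and the level remained under the wild-type mean of 37.7 ± 10.5 CPM (5.66 ± 0.44, adjusted p = 3.13e-07; against wild type -1.47 ± 0.27, adjusted p = 0.00261). ACT, the transferase that makes coumaroylagmatine, a defence compound, went from 0, 0.155 and 0.503 CPM to 16.0, 8.15 and 6.10 CPM (5.42 ± 1.04, adjusted p = 0.00133). DTX18, a transporter that exports such compounds, went from 3.36, 5.78 and 6.40 CPM to 66.0, 37.6 and 47.4 CPM (3.27 ± 0.32, adjusted p = 4.82e-06). For ACT and DTX18 too the 3 double mutant libraries all exceeded the topp4-1 libraries; without topp4-1 replicate 3 the ACT change was 6.93. FLA13, a fasciclin-like arabinogalactan protein of the cell surface, rose by 3.22 ± 0.16, from 7.47 ± 1.60 to 70.0 ± 5.81 CPM against 75.3 ± 12.2 CPM in wild type. CSLA9, a glucomannan synthase, rose by 3.48 ± 0.19, and CRK42, a cysteine-rich receptor-like kinase, by 3.22 ± 0.16. ECS1, named for its difference in CPM, went from 1318 ± 62.6 to 3001 ± 51.5 CPM (1.19 ± 0.10, adjusted p = 4.44e-07). Its wild-type level was 2544 ± 46.7 CPM. PGLP1A, a phosphoglycolate phosphatase with a near-identical neighbour, was at 41.4, 4.69 and 6.27 CPM in the double mutant, so that 1 library set its rise of 3.19 ± 1.02; without it the change was 1.52 (adjusted p = 0.182), and the call was lost in 4 of the 6 fits that leave out a library.

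Among the genes that fell most were several that topp4-1 expressed far above wild type. M17 encodes a protein of the late embryogenesis abundant kind (AT2G41260, chr2:17206452-17207698). It was at 22.9, 18.7 and 26.5 CPM in topp4-1, 0.0545, 0.0516 and 0.113 CPM in the double mutant and 0.107, 0.103 and 0.0531 CPM in wild type. All 3 double mutant libraries were near 0, as in wild type (-8.17 ± 0.48, adjusted p = 1.4e-08). ATGRP9, a glycine-rich protein (AT2G05440, chr2:1993038-1994177), was at 842, 732 and 599 CPM in topp4-1 and 13.7, 12.5 and 10.8 CPM in the double mutant. The double mutant libraries were below the wild-type 28.7, 16.4 and 22.2 CPM as well (-5.87 ± 0.25 against topp4-1, adjusted p = 4.45e-09; -0.86 ± 0.23 against wild type, adjusted p = 0.0211). LAC7, a laccase, fell by 5.73 and DXPS1, an enzyme of plastid isoprenoid synthesis, by 5.58. Without double mutant replicate 3 these changes were -7.34 and -6.33.

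BGLU30, a beta-glucosidase induced in the dark, went from 152, 103 and 155 CPM to 3.98, 2.01 and 3.27 CPM (-5.47 ± 0.44, adjusted p = 1.39e-06). DOX1, an alpha-dioxygenase that makes oxylipins, went from 186, 82.4 and 140.1 CPM to 11.7, 3.82 and 7.45 CPM (-4.16 ± 0.54, adjusted p = 8.37e-05). OSM34, an osmotin-like defence protein, went from 170.2, 116 and 173 CPM to 10.9, 6.6 and 13.6 CPM (-3.88 ± 0.52, adjusted p = 0.000102). In each of these the groups were separated by several fold at their nearest libraries. ATHB-53, a homeodomain factor, changed by -4.45, the thioredoxin TRX8 by -3.96, the metal-binding protein HIPP22 by -3.86, CAD8, a cinnamyl alcohol dehydrogenase, by -3.75, PYD4, an aminotransferase of pyrimidine breakdown, by -3.70, the LOB-domain factor LBD3 by -3.67 and the alpha-amylase AMY1 by -3.50, with adjusted p from 4.93e-08 to 1.4e-05. UGT91C1, a glycosyltransferase, fell from 46.1 ± 8.95 to 3.15 ± 0.593 CPM (-3.87 ± 0.35) and remained above the wild-type 0.925 ± 0.505 CPM (1.75 ± 0.44, adjusted p = 0.0179). CAD8 ended below wild type (-1.82 ± 0.42, adjusted p = 0.0106).

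Photosynthesis genes rose together. Of 37 tested genes for light-harvesting proteins and photosystem subunits, 36 rose and none fell, with a median of 0.83, and all 5 genes for Rubisco small subunits and Rubisco activase rose, with a median of 1.60, where 21.4% of all genes rose. Copies of LHCB1, LHCB2 and RBCS are near identical and uncertain singly, and LHCB1.5 is listed at 0 in every library. RBCS-1A, a Rubisco small subunit (AT1G67090, chr1:25048158-25049667), was at 6102, 7208 and 6349.8 CPM in topp4-1 and 13532, 11870.4 and 14282 CPM in the double mutant. Every double mutant library exceeded every topp4-1 library, and wild type was at 11166 ± 1338 CPM (1.01 ± 0.13, adjusted p = 1.95e-05). RBCS-2B went from 293, 406 and 344 CPM to 1509, 1526 and 1878 CPM (2.23 ± 0.15, adjusted p = 4.93e-08). RCA, Rubisco activase, went from 3224, 3691 and 3359 CPM to 8105, 8396 and 11076 CPM (1.42 ± 0.17, adjusted p = 6.2e-06). The RCA level of the double mutant exceeded that of wild type, 4826 ± 842 CPM (0.93 ± 0.17, adjusted p = 0.00174), and pp1r3-2 alone was at 9027 ± 998 CPM. LHCB1.3, a light-harvesting protein of photosystem II, went from 8066 ± 579 to 13411 ± 801 CPM (0.73 ± 0.14), PSBR from 2467 ± 255 to 4526 ± 190.0 CPM (0.88 ± 0.15) and PSBQ1, of the oxygen-evolving complex, from 344 ± 39.1 to 893 ± 19.1 CPM (1.38 ± 0.13). Against wild type the light-harvesting median was -0.80 in topp4-1 and 0.02 in the double mutant. In whole leaves, more mesophyll cells and more of these transcripts per cell cannot be told apart.

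**Figure D3:**
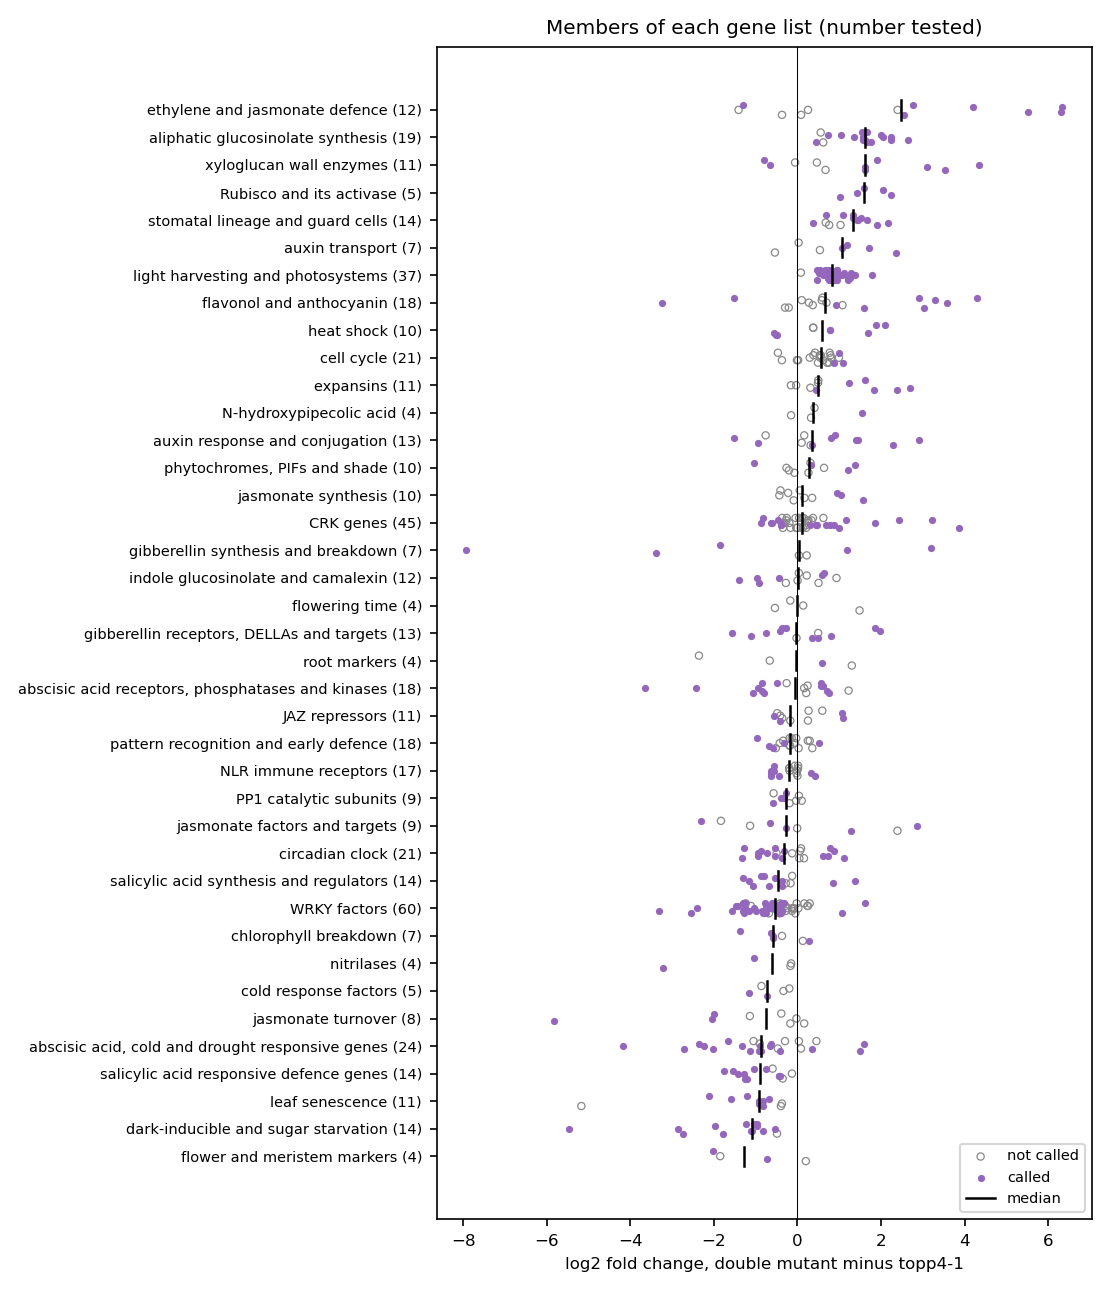
Each point is a gene of a list, placed by its log2 fold change in the double mutant minus topp4-1; filled points passed the test, open points did not, and the black bar is the median of the tested members. Light-harvesting, Rubisco, aliphatic glucosinolate and stomatal members lie mostly to the right of 0, and salicylic acid responsive, senescence and starvation members to the left.

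Salicylic acid defence genes fell. PR1 (AT2G14610, chr2:6241640-6242541), the standard marker of this pathway, was at 9983, 10421 and 9338 CPM in topp4-1 and 3669, 3398 and 3213 CPM in the double mutant. All double mutant libraries were under every topp4-1 library and around the wild-type 3589, 4205 and 3929 CPM (-1.53 ± 0.16, adjusted p = 2.11e-06). BGL2, the glucanase PR2, went from 3555, 3442 and 2599.8 CPM to 829, 995 and 1018 CPM (-1.76 ± 0.18, adjusted p = 1.87e-06), and PR5, a thaumatin-like protein, from 1847 ± 327 to 689 ± 24.7 CPM (-1.42 ± 0.24, adjusted p = 0.000276), below the wild-type 1252 ± 320.2 CPM. Of 14 responsive genes, 11 fell and none rose, with a median of -0.90, where 21.9% of all genes fell. Of the 11, DMR6, WRKY70 and LURP1 had the changes closest to 0, -0.43, -0.45 and -0.41, and WRKY54, GRXC9 and NUDT6 did not pass (-0.13, -0.35 and -0.59). The DMR6 call was lost without topp4-1 replicate 1 (adjusted p = 0.0576), that of WRKY70 without topp4-1 replicate 1 or double mutant replicate 1 or 2 (0.0588 to 0.108) and that of LURP1 without any of these or topp4-1 replicate 2 (0.0503 to 0.115).

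Upstream genes moved the same way in most cases. CBP60G and SARD1, the factors that switch on salicylic acid synthesis, went from 483 ± 51.3 to 216 ± 41.6 CPM (-1.16 ± 0.15, adjusted p = 1.45e-05) and from 378 ± 44.0 to 208 ± 33.9 CPM (-0.87 ± 0.13, adjusted p = 8.94e-05). PBS3, an enzyme of the synthesis, fell by 1.31, the lipase-like regulators PAD4 and EDS1 by 0.68 and 0.54, and the receptor NPR3 by 0.80. ACD6, an ankyrin membrane protein that promotes salicylic acid defence, rose instead, from 354, 431 and 466 CPM to 844, 1084 and 1310.2 CPM (1.37 ± 0.18, adjusted p = 2.44e-05), and so did EPS1 (0.85 ± 0.27), though not without topp4-1 replicate 3 or double mutant replicate 1 (adjusted p = 0.0831 and 0.067). In all, 9 of 14 synthesis and regulator genes fell and 2 rose, where 21.9% and 21.4% of all genes did. The other 3 did not pass. These were EDS16, known as ICS1 (-0.278, adjusted p = 0.237), DTX47, known as EDS5 (-0.165, adjusted p = 0.523), and NPR4 (-0.127, adjusted p = 0.384). Of 4 genes for N-hydroxypipecolic acid, the signal of systemic resistance, ALD1 rose, from 4.58, 5.68 and 7.09 CPM to 9.81, 15.6 and 25.5 CPM (1.55 ± 0.40, adjusted p = 0.00694), while FMO1 was at 18.7 ± 0.755 and 23.4 ± 5.03 CPM and did not pass.

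Immune receptors of the NLR class fell in 6 of 17 cases and rose in 2, where 21.9% and 21.4% of all genes did. Among the falls were the helper receptors ADR1, ADR1-L1 and ADR1-L2, with changes of -0.57 ± 0.11, -0.56 ± 0.14 and -0.65 ± 0.15, and RPP4, with -0.64 ± 0.15. The helper AT5G66910, known as NRG1.2, fell too (-0.62 ± 0.10, adjusted p = 8.43e-05). Its neighbour AT5G66900, known as NRG1.1, did not pass. It was at 57.4 ± 2.22 CPM in topp4-1 and 57.4 ± 5.57 CPM in the double mutant (adjusted p = 0.998), above wild type (0.49 ± 0.09 for the double mutant, adjusted p = 0.00222). DAR4 rose by 0.41 and RRS1 by 0.32, and RPS2 is listed at 0 in every library. Without double mutant replicate 3 neither rise passed, and the RRS1 call was lost in 4 of the 6 fits that leave out a library (adjusted p = 0.0683 to 0.187). In pattern recognition and early defence, 4 of 18 fell, a share near the 21.9% of all genes, among them the chitin receptor LYK5 (-0.68 ± 0.14) and WRKY33 (-0.57 ± 0.16), and LYK4 rose, a call lost in 5 of the 6 fits that leave out a library (adjusted p = 0.0579 to 0.189). The number that fell was 2 without topp4-1 replicate 1 or 2 or double mutant replicate 2, and 7 with only the compared libraries fitted. The flagellin receptor FLS2, at 35.8 ± 1.83 and 42.5 ± 6.17 CPM, did not pass. WRKY transcription factors, a family with many defence members, fell in 34 of 60 cases and rose in 2, with a median of -0.54. WRKY51 went from 163, 129 and 125 CPM to 57.8, 44.5 and 52.2 CPM (-1.43 ± 0.13, adjusted p = 5.65e-07) and WRKY57 from 52.7, 46.4 and 45.8 CPM to 18.8, 20.2 and 21.0 CPM (-1.27 ± 0.11, adjusted p = 3.58e-07). Both groups of libraries were apart in these 2 genes, and WRKY57 ended above its wild-type 13.7 ± 1.26 CPM (0.55 ± 0.11, adjusted p = 0.00472). The rises were in WRKY30 and WRKY44, and the latter was lost in 4 of the 6 fits that leave out 1 library (adjusted p = 0.109 to 0.149).

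Genes of starvation, senescence and chlorophyll loss fell as well. DIN4, a subunit of branched-chain keto acid breakdown that is induced in the dark, was at 131, 133 and 132 CPM in topp4-1 and 33.4, 28.1 and 39.4 CPM in the double mutant. BCAT2, which starts the breakdown of branched-chain amino acids, went from 324, 392 and 368 CPM to 51.7, 40.6 and 57.7 CPM. The libraries of both groups were far apart, with changes of -1.97 ± 0.12 (adjusted p = 2.72e-08) and -2.85 ± 0.25 (adjusted p = 1.02e-06), and wild-type means were 27.7 ± 3.34 and 62.5 ± 8.69 CPM. ASN1, the asparagine synthetase induced by low sugar, fell by 2.73 and TPS11, a trehalose phosphate synthase-like protein, by 1.22. Of 14 such genes, 13 fell and none rose, with a median of -1.09. Among 11 senescence genes 8 fell and none rose. STR15, known as SEN1, went from 518, 644 and 566 CPM to 124, 91.0 and 181 CPM (-2.13 ± 0.28, adjusted p = 4.42e-05). NAC029, the factor NAP that promotes senescence, went from 222 to 117 CPM on average (-0.92 ± 0.22) and remained above the wild-type 62.9 ± 8.00 CPM (0.90 ± 0.22, adjusted p = 0.0147). SGR1 and SGR2, proteins that act on chlorophyll in ageing leaves, fell by 0.63 and 1.38, PPH and NYC1, enzymes of the same route, by 0.58 and 0.59, and RCCR rose by 0.27; the NYC1 call was lost without double mutant replicate 1 (adjusted p = 0.0526). Abundant transcripts of stress and redox proteins fell too: the metallothionein MT2A (-1.26 ± 0.13), the catalase CAT3 (-0.55 ± 0.13) and the peroxidase PER34 (-1.74 ± 0.14).

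Aliphatic glucosinolates are methionine-derived defence compounds of the cabbage family. Of 19 tested genes of their synthesis, 17 rose and none fell, where 21.4% and 21.9% of all genes did, with a median of 1.62. The calls of MAM1, BCAT4 and BASS5 were lost without replicate 1 or 2 of either topp4-1 or the double mutant (adjusted p = 0.0583 to 0.0937). Those of SUR1 and SOT18 were lost without topp4-1 replicate 1 or double mutant replicate 1 or 2 (0.0502 to 0.0864). MYB28, the main activator, was at 9.36, 10.6 and 15.2 CPM in topp4-1 and 56.6, 67.5 and 43.0 CPM in the double mutant. CYP79F1, which starts the core pathway, went from 17.2, 19.6 and 25.3 CPM to 105, 119 and 69.0 CPM. In both genes the lowest double mutant library was replicate 3, still above every topp4-1 library, with changes of 2.25 ± 0.20 (adjusted p = 8.64e-07) and 2.24 ± 0.36 (adjusted p = 0.00029). Wild type was at 54.4 ± 8.92 and 121 ± 64.3 CPM. MAM3, a chain-elongation enzyme, rose by 1.54 ± 0.23 and UGT74C1, a glucosyltransferase, by 2.04 ± 0.22. The medians against wild type were -1.88 in topp4-1 and -0.26 in the double mutant.

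Genes of the stomatal lineage rose in 11 of 14 cases and fell in none, where 21.4% and 21.9% of all genes did, with a median of 1.33. The MUTE call was lost without topp4-1 replicate 2 or 3 or double mutant replicate 1 or 2 (adjusted p = 0.068 to 0.13). That of BASL was lost without topp4-1 replicate 1 or 2 or double mutant replicate 1 (0.0737 to 0.128), and that of SBT1.2 without double mutant replicate 1 (0.0589). SPCH, the factor that starts the lineage, was at 1.53, 1.60 and 1.74 CPM in topp4-1 and 6.76, 6.08 and 2.65 CPM in the double mutant. EPFL9, the secreted peptide stomagen that promotes stomata, went from 4.22, 4.49 and 2.51 CPM to 13.1, 10.1 and 8.92 CPM. MYB60, a guard cell factor, went from 2.90, 4.18 and 2.19 CPM to 7.41, 8.92 and 8.86 CPM. The groups did not overlap in these 3 genes, the rises were 1.67 ± 0.40, 1.52 ± 0.24 and 1.45 ± 0.23 (adjusted p = 0.0033, 0.000131 and 0.000125), and SPCH was lowest in double mutant replicate 3. Summed over the 14 genes the level was 79.2 to 88.4 CPM in topp4-1, 129 to 163 CPM in the double mutant and 160.1 to 174 CPM in wild type. The share of guard cells in the leaves was not measured.

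Genes of cell expansion and auxin rose in part. Among 11 expansins, proteins that loosen the wall, 6 rose and none fell. EXPA5 went from 2.39, 2.12 and 3.93 CPM to 21.5, 20.6 and 13.4 CPM (2.71 ± 0.24, adjusted p = 7.79e-07), without reaching the wild-type 35.9 ± 6.29 CPM (-0.95 ± 0.21, adjusted p = 0.00728). EXPA11 rose by 2.38 ± 0.40, and by 3.06 without topp4-1 replicate 3. Of 11 xyloglucan enzymes 6 rose, among them XTH6, from 8.19, 5.16 and 9.37 CPM to 94.9, 79.0 and 91.5 CPM (3.54 ± 0.28, adjusted p = 5.07e-07), and XTH7 (3.1 ± 0.36). XTH24 and XTH23 fell, and the XTH23 call was lost in 4 of the 6 fits that leave out a library (adjusted p = 0.0566 to 0.174). ATXTH17 had 1 count over the topp4-1 libraries and 25 over those of the double mutant, a ratio of 27.5 with a 95% counting interval of 4.5 to 1130; its call was lost without topp4-1 replicate 1 or 2 or double mutant replicate 3 (adjusted p = 0.0549 to 0.11).

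The auxin exporters PIN3, PIN4 and PIN7 and the importer AUX1 rose, 4 of 7 transport genes, and none fell; 1 was lower with DESeq2, with the replicate block, with only the compared libraries fitted and without double mutant replicate 2. PIN7 was at 8.75, 9.65 and 14.4 CPM in topp4-1 and 61.1, 53.9 and 55.3 CPM in the double mutant (2.37 ± 0.19, adjusted p = 2.47e-07), and PIN3 at 40.2, 43.8 and 42.3 CPM and 135, 132 and 149.6 CPM (1.72 ± 0.12, adjusted p = 4.95e-08). In both exporters every double mutant library was above every topp4-1 library. Of 13 auxin response genes 7 rose, among them the repressors IAA7, SHY2 and IAA17 with 1.44 ± 0.13, 2.29 ± 0.24 and 2.90 ± 0.35, and the conjugating enzymes GH3.5 and GH3.3 fell, GH3.5 from 124, 110.1 and 127 CPM to 37.6, 42.3 and 45.4 CPM (-1.53 ± 0.17, adjusted p = 5.11e-06). Without topp4-1 replicate 1, 4 of these genes rose, and the GH3.3 call was lost without topp4-1 replicate 3 or double mutant replicate 1 or 2 (adjusted p = 0.0593 to 0.0639). NIT2, a nitrilase (AT3G44300, chr3:15983199-15985535), was at 1526, 1436 and 1515 CPM in topp4-1, 141, 114 and 225 CPM in the double mutant and 98.6, 102 and 90.8 CPM in wild type (-3.22 ± 0.26, adjusted p = 3.92e-07), so the topp4-1 libraries stood far above all others. NIT1, from the same cluster of genes, was at 967 ± 74.8 and 870.3 ± 27.5 CPM and did not pass.

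Of 10 tested jasmonate synthesis genes, 7 were lower than wild type in topp4-1, 7 in the double mutant and 8 in pp1r3-2. Of all genes, 26.5%, 5.47% and 8.33% were lower than wild type in these 3 genotypes. Jasmonate is made in plastids and peroxisomes, acts as a conjugate with isoleucine through removal of JAZ repressors, and is oxidised to end the signal. OPR3, a reductase of the synthesis, was at 53.9, 63.9 and 58.9 CPM in topp4-1, 64.1, 71.4 and 62.9 CPM in the double mutant and 147, 216 and 339 CPM in wild type. The topp4-1 and double mutant libraries overlapped and were all under the lowest wild-type library (0.17 ± 0.21, adjusted p = 0.548; double mutant against wild type -1.82 ± 0.21, adjusted p = 0.000103). The wild-type libraries differed among themselves by more than 2-fold. Against topp4-1 3 of the 10 rose, where 21.4% of all genes did: AOC1, AOC2 and CYP74A (not without topp4-1 replicate 1, adjusted p = 0.0503). None fell, but 2 did with only the compared libraries fitted. The cyclases remained low: AOC2, an allene oxide cyclase whose copies are uncertain singly, was at 54.7 ± 10.9 CPM in topp4-1, 113 ± 13.7 CPM in the double mutant and 344 ± 73.5 CPM in wild type. The medians of the group against wild type were -1.87 in topp4-1, -1.67 in the double mutant and -1.57 in pp1r3-2, which share the wild-type libraries.

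Of 11 JAZ repressors 2 rose and 2 fell, where 21.4% and 21.9% of all genes did. Of the falls, that of TIFY10A was lost without topp4-1 replicate 1 or 2 or double mutant replicate 1 or 2 (adjusted p = 0.0502 to 0.0631). JAZ9 went from 68.2, 77.1 and 70.6 CPM to 167, 157 and 139 CPM (1.1 ± 0.15, adjusted p = 2.11e-05), while JAZ10 was at 7.53, 7.17 and 6.72 CPM and 5.18, 6.24 and 3.84 CPM, far from the wild-type 22.6, 44.0 and 46.6 CPM, and did not pass (-0.48 ± 0.28, adjusted p = 0.181). CYP94B3, which oxidises the active conjugate (AT3G48520, chr3:17974853-17976774), was lower still: 4.32, 2.89 and 3.11 CPM in topp4-1, 0.0545, 0.103 and 0 CPM in the double mutant, 19.6, 29.0 and 42.3 CPM in wild type and 0, 0.167 and 0.159 CPM in pp1r3-2. In counts this was 209 over the topp4-1 libraries and 3 over those of the double mutant, 63.4 times as many per unit of depth, with a 95% counting interval of 21.4 to 310 (adjusted p = 1.98e-06). The fitted change of -5.83 was -6.65 without double mutant replicate 2. AT2G38240, which carries the symbol ANS in the table, went from 7.37, 6.71 and 5.03 CPM to 1.69, 1.29 and 1.81 CPM against 43.4 ± 11.8 CPM in wild type (-2.0 ± 0.29, adjusted p = 6.03e-05). SOT15, a sulfotransferase of the pathway, fell by 2.06, a call that was lost without topp4-1 replicate 1 or double mutant replicate 2 or 3 (adjusted p = 0.0709 to 0.0795) and whose size was -2.96 without double mutant replicate 1. CYP94B1, at 0.373 ± 0.125 and 0.279 ± 0.314 CPM against 9.08 ± 1.78 CPM in wild type, and CYP94C1, at 6.48 ± 0.615 and 6.36 ± 0.833 CPM against 50.3 ± 12.8 CPM, did not pass. CLH1, a jasmonate-inducible gene, did rise, from 9.05, 11.1 and 11.1 CPM to 102, 75.3 and 52.1 CPM (2.87 ± 0.29, adjusted p = 5.43e-06), short of the wild-type 235 ± 82.6 CPM (-1.62 ± 0.27, adjusted p = 0.0017). MYC2, the main activator, is listed at 0 in every library, wild type included, as are F3H, RPS2 and LHCB1.5 above. These values are not read as absent expression. Whether the counting left these genes out was not tested.

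Cold- and dehydration-responsive genes split. RD29A (AT5G52310, chr5:21240717-21243644), a marker of both responses, was at 25.7, 33.2 and 25.9 CPM in topp4-1, 30.6, 51.9 and 33.5 CPM in the double mutant, 46.1, 76.5 and 52.8 CPM in pp1r3-2 and 333, 448 and 526 CPM in wild type. The mutant libraries were all far under the wild-type libraries, and the difference between the double mutant and topp4-1 did not pass (0.45 ± 0.23, adjusted p = 0.12). COR15A, a chloroplast protein made in the cold, was at 4.22, 4.54 and 3.57 CPM in topp4-1 and 4.96, 5.00 and 2.6 CPM in the double mutant, overlapping, against 31.2, 63.3 and 96.8 CPM in wild type (0.03 ± 0.41, adjusted p = 0.954). The dehydrins COR47, ERD10 and XERO2 fell further in the double mutant, with changes of -0.91, -0.89 and -1.32; XERO2 was at 5.49, 4.33 and 4.62 CPM in topp4-1 and 2.07, 2.17 and 1.52 CPM in the double mutant against 39.1, 37.7 and 41.4 CPM in wild type. A second set was high in topp4-1 and fell. ATHB-7, a homeodomain factor induced by abscisic acid, went from 129, 116 and 107 CPM to 15.4, 19.0 and 19.6 CPM against 13.1 ± 0.319 CPM in wild type (-2.70 ± 0.22, adjusted p = 4.48e-07), and ATHB-12, PXG3 and LEA46 fell by 1.65, 2.35 and 4.17. RD22 rose, from 87.4, 86.5 and 66.9 CPM to 226, 268 and 238 CPM (1.60 ± 0.19, adjusted p = 7.99e-06). In all, 14 of 24 fell and 3 rose, with a median of -0.88, and the median against wild type was 0.45 in topp4-1 and -0.62 in the double mutant.

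**Figure D4:**
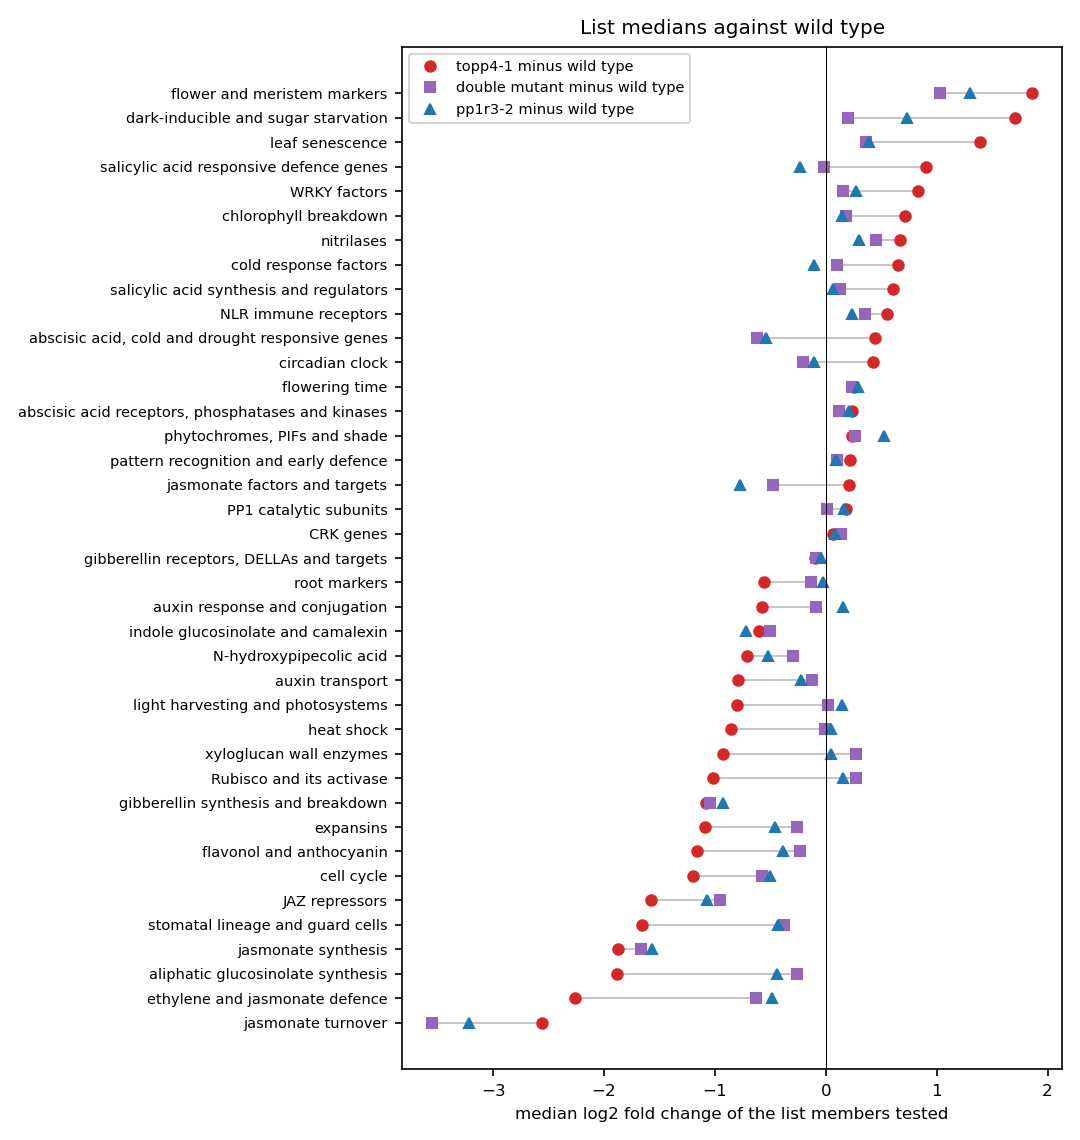
Each row is a gene list, with the median log2 fold change against wild type of its tested members in topp4-1 (red circles), the double mutant (purple squares) and pp1r3-2 (blue triangles); the grey line joins topp4-1 and the double mutant. The double mutant lay nearer 0 than topp4-1 for photosynthesis, glucosinolate, stomatal, senescence and salicylic acid lists, near topp4-1 for jasmonate synthesis (-1.67 and -1.87) and farther from 0 for jasmonate turnover (-3.55 and -2.56), and all 3 medians share the wild-type libraries.

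Clock genes changed in both directions. LHY, CCA1 and RVE8, factors that peak near dawn, and RVE1 rose. LHY was at 109.8, 116 and 112 CPM in topp4-1 and 266, 209 and 258 CPM in the double mutant, against 119, 90.0 and 130.0 CPM in wild type and 234, 235 and 268 CPM in pp1r3-2. The libraries with pp1r3-2 were thus all above those without it (1.12 ± 0.15 against topp4-1, adjusted p = 2.4e-05). RVE1 went from 48.4, 47.7 and 42.2 CPM to 87.9, 74.2 and 90.5 CPM (0.87 ± 0.11, adjusted p = 1.51e-05), and wild type was at 28.0 ± 1.19 and pp1r3-2 at 101 ± 3.61 CPM. APRR1, known as TOC1, a repressor that peaks in the evening, went from 175, 187 and 190.3 CPM to 89.7, 106 and 104 CPM (-0.88 ± 0.10, adjusted p = 7.57e-06) and APRR5 from 60.5, 64.9 and 64.0 CPM to 18.8, 28.0 and 29.0 CPM (-1.32 ± 0.21, adjusted p = 0.000197). Of 21 tested clock genes 5 rose, a share near the 21.4% of all genes. Another 10 fell, where 21.9% of all genes did, and 6 fell without double mutant replicate 1. The labels give no hour of harvest, so hour and genotype cannot be told apart.

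TOPP transcripts themselves differed little. TOPP4 (AT2G39840, chr2:16627216-16629412), the gene mutated in both groups, was at 38.2, 37.5 and 34.6 CPM in topp4-1 and 27.9, 30.7 and 33.3 CPM in the double mutant. The groups did not overlap, but the difference was small (-0.26 ± 0.09, adjusted p = 0.0239) and was lost without topp4-1 replicate 1 or 2 or double mutant replicate 1 or 2 (adjusted p = 0.0579 to 0.121). TOPP3 went from 94.0, 97.5 and 95.9 CPM to 57.6, 65.4 and 69.7 CPM (-0.58 ± 0.09, adjusted p = 0.000116), TOPP1 changed by -0.41 ± 0.11 and TOPP8 by -0.31 ± 0.09, the last not without double mutant replicate 1 (adjusted p = 0.053). TOPP2, TOPP5 and TOPP9 and the genes AT4G11240 and AT5G43380, whose symbols TOPP6 and TOPP7 are exchanged between the table and RefSeq, did not pass. Of 9 genes, 4 fell, where 21.9% of all genes did, and 2 fell without double mutant replicate 1. The level of a transcript does not check a dominant-negative allele.

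Calls for genes of the cell cycle depended on the libraries fitted, most of all on double mutant replicate 3. Their summed level was 142, 125 and 155 CPM in topp4-1 and 268, 259 and 91.2 CPM in the double mutant, and 205 to 348 CPM in wild type. Replicates 1 and 2 of the double mutant were thus above all topp4-1 libraries and replicate 3 below them, and all 21 genes were lowest of the double mutant in replicate 3. The sum was also lowest in replicate 3 of pp1r3-2 (205, 254 and 162 CPM) and of topp-7m (336, 323 and 154 CPM). In topp4-1 and wild type (205, 316 and 348 CPM) replicate 3 was highest. Whether the replicates of different genotypes share a cause was not tested. MCM2, of the DNA replication licensing complex, went from 8.64, 7.48 and 8.64 CPM to 20.1, 22.0 and 10.3 CPM (1.08 ± 0.25, adjusted p = 0.00314). Of 21 genes 3 rose and none fell, where 21.4% and 21.9% of all genes did. Without replicate 3 of the double mutant 12 rose, and 1 rose without replicate 1 or 2 of either genotype. In the fit with the replicate block, and in that without double mutant replicate 2, 1 gene fell. The meristem factors KNAT1 and STM were at 6.54, 7.42 and 0.113 CPM and at 9.98, 12.8 and 0.282 CPM in the double mutant, lowest in the same library, against 18.8, 17 and 15.3 CPM and 8.39, 3.2 and 8.5 CPM in topp4-1. Of 4 tested flower and meristem genes PI, a floral organ factor, fell, from 5.24, 4.02 and 6.45 CPM to 0.491, 1.08 and 2.31 CPM (-2.02 ± 0.47, adjusted p = 0.00261), and AGL8 fell by 0.73; the PI change was -2.72 without double mutant replicate 3. The summed level of 11 such markers was 30.2 to 41.7 CPM in topp4-1 and 6.49 to 26.7 CPM in the double mutant, where AP1 was at 0. The part of meristem or floral tissue in these values was not tested.

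The same difference of genotype without topp4-1 is that of pp1r3-2 against wild type, which shares no library with the comparison above. It gave 3862 calls (19.3%), 2193 higher (10.9%) and 1669 lower (8.33%). It fell to 2511 and 2388 without wild-type replicate 2 and 3 and to 2472 without pp1r3-2 replicate 3. Of the 4284 genes that rose with pp1r3-2 in the topp4-1 background, 601 (14%) also rose in pp1r3-2 against wild type and 522 (12.2%) fell. Of the 4392 that fell, 326 (7.42%) also fell and 739 (16.8%) rose. As shares of the pp1r3-2 lists, the 601 were 27.4% of its rises and the 326 were 19.5% of its falls, and the 739 and 522 were 33.7% and 31.3%. Tested directly, the pp1r3-2 difference depended on topp4-1 for 7679 genes (38.3%), with 3816 (19%) more positive and 3863 (19.3%) more negative in the topp4-1 background. FLS1, which was chosen for its change in the topp4-1 background, changed by -0.48 ± 0.17 in pp1r3-2 against wild type (adjusted p = 0.0631) and by 3.58 ± 0.21 in the topp4-1 background, a difference of 4.06 ± 0.27 (adjusted p = 1.29e-07). LHY changed by 1.12 ± 0.15 and 1.12 ± 0.15, and the difference between these did not pass (adjusted p = 0.997).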

How the data were processed

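RNA from leaves was sequenced as poly-A selected libraries made with an NEBNext Ultra kit, per the labels' protocols, 3 for each of 5 genotypes. The deposited values are read counts per gene, which the authors deposited without normalization. HISAT2 2.0.5 is the aligner in the submitters' processing notes. How reads were counted, with which strand setting, build and annotation, is not given in the sources used here. Total counts were 17962200 to 20756997 per library, and every pair of libraries of a genotype differed beyond sampling noise.

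The table held 33024 genes, of which 191 are not from a chromosome gene model (150 of these were tested). Genes were kept with edgeR's filterByExpr (minimum count 10, minimum total 15), which left 20037, scaled by TMM and fitted for all 15 libraries together by genotype (10 residual degrees of freedom, common biological coefficient of variation 14.2%) with edgeR's robust quasi-likelihood test. P-values were adjusted by Benjamini-Hochberg over all genes, with calls under 0.05, and the SE is the size of the log2 change over the square root of F. The software was R 4.3.3, edgeR 4.0.16, limma 3.58.1 and DESeq2 1.42.0. The procedure was tested on simulated data.

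Coordinates were matched to RefSeq TAIR10.1, where 32532 of 32548 matched identifiers (99.95%) had the same start and end. Counting intervals and the floor of 3 counts cover counting error only. The comparison, its members and the gene lists were chosen with earlier results of these data known. Genes were named by rule: called, a mean of at least 5 CPM over the 6 libraries, a symbol, nuclear and protein-coding, with libraries that do not overlap; of these the 15 largest and 15 lowest changes and the 5 and 5 with the largest difference in CPM; all TOPP genes; and up to 5 members of each list with the smallest adjusted p, with any other needed to account for it. Alternatives were RLE scaling, other filters, a replicate block, fits of the compared groups alone, DESeq2, a log2 minimum of 1 and leaving out each library. Replicate numbers of the labels were not taken to pair libraries.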

Additional observations from a re-analysis of the deposited data

Results flagged for a closer look

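The size of the pp1r3-2 difference depended on whether topp4-1 was present, by a direct test of the difference between both effects with edgeR's quasi-likelihood test, for 7679 of 20037 genes. The genes given here are those among the 15 rises and 15 falls named by rule that passed it. They were chosen for their change in the double mutant against topp4-1, which is part of the difference tested, so that they passed, and the sign, are a description and no support for a dependence on topp4-1. The values are log2 differences, the change with topp4-1 minus the change without it.

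Among the rises, the defensins PDF1.2C (8.722), PDF1.2A (8.219), PDF1.2B (7.022) and PDF1.3 (6.699) had large differences, with ACT at 7.331 and its transporter DTX18 at 4.082. MSRB6 stood at 6.77 and PGLP1A at 5.081, the latter set by 1 library. The flavonoid genes FLS1, CHI3 and 4CL3 stood at 4.062, 3.46 and 3.444. For CSLA9, CRK42, FLA13 and XTH6 the differences were 3.932, 3.512, 3.346 and 2.824.

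Among the falls, M17 had a difference of -10.354, UGT91C1 of -5.974, ATHB-53 of -5.383, BGLU30 of -4.898, LAC7 of -4.894 and ATGRP9 of -4.669. HIPP22 stood at -4.625, TRX8 at -4.227, PYD4 at -3.984 and OSM34 at -3.773. The falls with differences nearest 0 were LBD3 (-3.317), AMY1 (-3.171), DOX1 (-2.855) and CAD8 (-1.95).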

How the results depend on the processing

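For the double mutant against topp4-1, the count of 8676 called genes was 8643 with RLE scaling, 8331 with no filter beyond 1 count, 8495 with at least 1 CPM in 3 libraries, 8097 with only the compared libraries fitted and 8941 with DESeq2, and 6961 to 9029 when a library was left out. Asking also for a log2 change of at least 1 left 2829 genes there, 3821 in topp4-1 against wild type, 546 in the double mutant against wild type, 780 in pp1r3-2 against wild type and 3398 for the difference between both pp1r3-2 effects, and the share of calls that were higher went from 49.4% to 59.4% in the first. The double mutant against wild type, 2631 genes, was least stable: 1342 with only the compared libraries fitted, and 1379 to 3008 when a library was left out. For pp1r3-2 against wild type the count with a library left out was 2388 to 3915, for topp4-1 against wild type 9237 to 10191 and for the difference between both effects 6570 to 8576. The cause of these moves was not tested. With the replicate block 8827 genes were called for the double mutant against topp4-1 and 10902 for topp4-1 against wild type. It gave 2842 for the double mutant against wild type, 4038 for pp1r3-2 against wild type and 7873 for the difference. In deviations from the genotype mean, same-numbered libraries of the double mutant and topp4-1 correlated at 0.0408, -0.154 and -0.188. With 3 libraries a genotype this cannot exclude a batch shared by number, on which the labels are silent. Of 362 named genes, 292 kept their direction and their side of the threshold in every setting run, and none of the 362 reversed. Where a list had 0 members called in a direction against topp4-1 by edgeR, 0 passed with an unadjusted p under 0.05 or with DESeq2 as well, except 1 lower auxin transport gene by both and 1 lower root marker by the unadjusted p. Of 80 list counts, 57 stayed within 1.5 times in every setting.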

Other observations

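Gibberellin genes changed in both directions in the double mutant against topp4-1. Gibberellins are growth hormones whose receptors, the GID1 proteins, remove DELLA repressors. GA3OX1, which makes the active hormone, went from 1.12, 1.5 and 2.15 CPM to 3.00, 3.45 and 4.52 CPM (1.19 ± 0.27), and GA2OX8, which inactivates precursors, from 0.102, 0.103 and 0.0914 CPM to 1.36, 0.876 and 0.621 CPM (3.19 ± 0.54). GA20OX3 had 95 counts over the topp4-1 libraries and 0 over those of the double mutant, at least 28.8-fold lower against a floor of 3 counts over the group, and its call was lost with DESeq2 (adjusted p = 0.194). The receptor GID1B fell by 1.11 and GID1A and GID1C by less, while the DELLA genes RGL1, GAI and RGA rose by 1.85, 0.48 and 0.36 and RGL3 fell by 1.55. In all, 2 of 7 metabolic genes rose and 3 fell, and 5 of 13 signalling genes rose and 6 fell. Of all genes 21.4% rose and 21.9% fell. PHYA, a phytochrome, fell (-1.05 ± 0.11), and PHYB and the phytochrome substrates PKS1 and PKS4 rose (0.33 ± 0.08, 1.21 ± 0.11 and 1.38 ± 0.28), 3 higher and 1 lower of 10 tested genes of phytochromes, PIFs and shade, with 2 lower without double mutant replicate 3.

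Several phosphatases that act against abscisic acid signalling fell. AIP1 and SAG113, phosphatases also known as HAI2 and HAI1, fell from 3.69 ± 1.12 to 0.285 ± 0.122 CPM (-3.65 ± 0.50) and from 24.3 ± 6.33 to 4.50 ± 1.92 CPM (-2.43 ± 0.31), and ABI1 fell by 1.05. The receptors PYR1, PYL1, PYL4, PYL5 and PYL6 rose by 0.56 to 0.76, and PYL7 fell. Of 18 genes 5 rose and 8 fell, where 21.4% and 21.9% of all genes did. The CRK symbols cover cysteine-rich receptor-like kinases and calcium-dependent kinase relatives. Of 45 such genes 12 rose and 8 fell, shares near the 21.4% and 21.9% of all genes. CRK30 (3.86 ± 0.27) and CRK41 (2.42 ± 0.25) were among the rises. The falls numbered 3, 4 and 13 without double mutant replicate 1, 2 and 3. Of 10 heat shock genes 5 rose, among them FKBP65 (2.09 ± 0.37) and HSP90-1 (1.69 ± 0.33), and 3 fell, 1 in 5 of the 6 fits that leave out a library. Of 12 genes of indole glucosinolates and camalexin 2 rose and 4 fell, where 21.4% and 21.9% of all genes did. Of these falls, that of MYB51 was lost without any 1 of the topp4-1 replicates and without double mutant replicate 1 or 2 (adjusted p = 0.0619 to 0.143). Of 5 cold response factors DREB2A (-1.16 ± 0.22) and DREB1C fell, the latter lost in 4 of the 6 fits that leave out a library (adjusted p = 0.0825 to 0.211). None of FT, SOC1, FLC and SVP, flowering time genes, passed edgeR's test, and 0 of the 4 did so with an unadjusted p under 0.05 or with DESeq2.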
